A study of Mus musculus with 7 samples.

Results

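The Frizzled receptors and their LRP coreceptors were described as the rows of the gene count table for *Fzd1* to *Fzd8*, *Lrp5* and *Lrp6*, 10 genes out of 47729 identifiers. The rows were found by matching each Ensembl identifier to its mouse symbol, and all 10 passed the filter on low counts. The gene family itself was picked with earlier results of these data known. Aortic RNA of wild-type animals (WT) gave 4 libraries and that of Mmp19-/- animals (KO) gave 3. The labels name no difference between the groups besides genotype. They do not state age, treatment, how the *Mmp19* allele was made, or whether any mouse gave more than 1 library. The metalloproteinase MMP19 is tied in the series title to aggrecan and to Wnt/β-catenin signalling in smooth muscle cells. The comparison below asks whether the receptors that receive Wnt signals differed between the genotypes.

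Frizzled proteins are receptors that cross the membrane repeatedly and bind Wnt proteins through a cysteine-rich domain outside the cell. For β-catenin signalling a Frizzled and LRP5 or LRP6 are drawn together by the same Wnt protein, Dishevelled is recruited, and the complex that destroys β-catenin is held back. FZD1, FZD2 and FZD7 form a subfamily of close relatives, as do FZD5 and FZD8, and FZD3 and FZD6. FZD4 is in none of these groups and also binds norrin, a signal of vessel growth. The β-catenin branch in vessels is known from endothelial barrier formation and from smooth muscle growth after injury.

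Counts per library summed to between 68151472 and 76926790 estimated counts, and values are given as CPM, the usual count scaled to library depth. *Mmp19* itself was still counted in the libraries labelled KO, at 25.5, 11.95 and 15.9 CPM in KO replicates 1, 2 and 3 against 24.8, 24.8, 20.7 and 34.7 CPM in WT replicates 1 to 4. A total over the gene is blind to the exons that were read, so it does not check the labels. Smooth muscle contractile markers, all 10 of 10 detected, summed to between 18516 and 20445 CPM in WT, and to 3576, 13934 and 7269.6 CPM in KO replicates 1, 2 and 3. Macrophage markers, also 10 of 10 detected, summed to between 307 and 532 CPM in WT and to 3762, 677 and 1225 CPM in the same order. On both lists KO replicate 1 stood farthest from WT and KO replicate 2 nearest. Some of the other lists ordered the KO libraries differently. Cardiac and skeletal muscle markers summed to between 30.6 and 105.2 CPM in WT and to 745.9, 1194 and 154.8 CPM in KO replicates 1 to 3. The genes of this list did not move together. *Myh6*, *Tnnt2*, *Tnni3*, *Nppa* and *Actc1* were above all WT libraries in KO replicates 1 and 2 and not in KO replicate 3. *Acta1*, *Tnnt3* and *Myh4* were highest in KO replicate 3, and *Myh7* and *Ckm* lay above WT in every KO library. Cartilage markers summed to between 56.9 and 145.5 CPM in WT and to 577.7, 231.8 and 266.9 CPM in KO. By this sum KO replicate 1 was again farthest from WT and KO replicate 2 nearest. Fibroblast markers spanned 5672 to 9923 CPM in WT, with KO values of 11865, 7990.1 and 7803 CPM. In KO replicate 1 *Col1a1* alone gave 9724 CPM of that sum. There *Pi16*, *Clec3b*, *Dcn* and *Cd34* were below their WT ranges, *Pdgfra*, *Dpp4*, *Lum*, *Col1a1* and *Ly6a* above, and *Dpt* within. Adipocyte markers spanned 4535 to 8491 CPM in WT, with KO values of 3232, 6076 and 8764 CPM. In RNA of whole tissue, fewer cells of a type and less RNA per cell cannot be told apart.

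*Fzd2* and *Fzd7* were the members whose KO libraries all lay below all WT libraries, and the other 8 overlapped. None of the 10 passed the test over all genes. The log2 fold change was below 0 for 9 of 10 members, where 53.1% of all 19188 tested genes were below 0. The median over the members was -0.18, against -0.03 over all genes. By edgeR's quasi-likelihood test with Benjamini-Hochberg adjustment, 0 of 10 members were called at an adjusted p under 0.05, where 0.0156% of all genes were called. At an unadjusted p under 0.05 there were 2 members, both lower, against 7.27% of all genes lower at that limit. Groups that did not overlap were seen with KO lower for 2 of 10 members and 8.56% of all genes, and with KO higher for 0 members and 8.17% of all genes. An absolute log2 fold change above 0.5 was seen for 2 members and for 33.2% of all genes. DESeq2 called 1 member, *Fzd2*, and 9.68% of the genes to which it gave an adjusted p. With sample quality weights, limma-voom called 0 members and 0.0365% of all genes. Its weights ran from 0.256 for KO replicate 1 to 2.61 for WT replicate 4. Without KO replicate 2, edgeR called 1 member, *Fzd7*, and 5.16% of all genes.

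**Figure D1:**
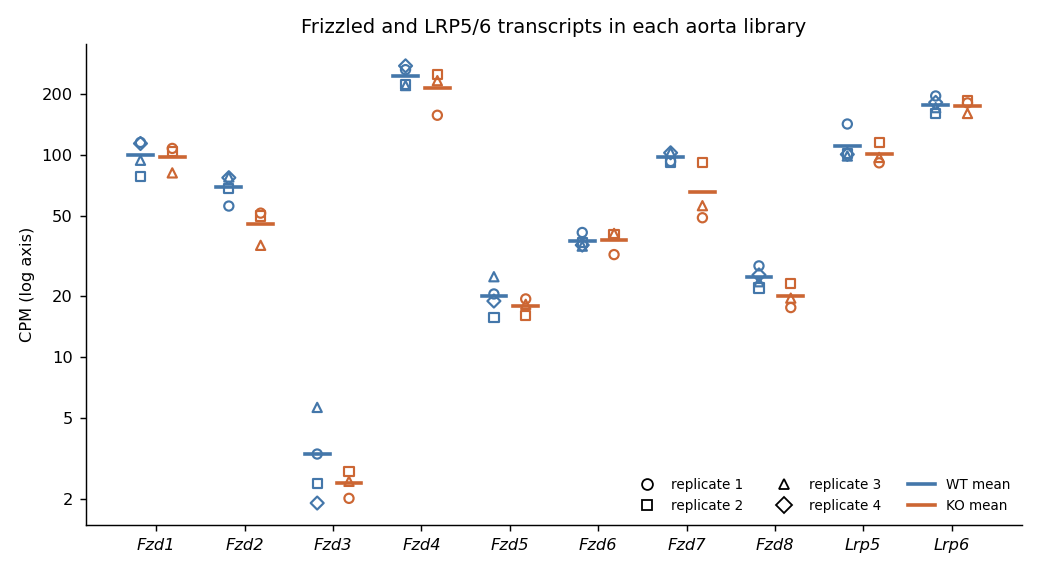
CPM of each Frizzled and LRP gene (log axis) in the 4 WT and 3 KO libraries, with 1 symbol per replicate number and a bar at each group mean. *Fzd4* and *Lrp6* gave the most counts and *Fzd3* the fewest, and the KO symbols lie below all WT symbols for *Fzd2* and *Fzd7*.

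The receptors of the FZD1, FZD2 and FZD7 subfamily are single-exon genes on different chromosomes. On GRCm38 *Fzd1* lies on chromosome 5 (4753839 to 4758035), *Fzd2* on chromosome 11 (102604396 to 102608058) and *Fzd7* on chromosome 1 (59482424 to 59486955). *Fzd2*, a receptor for both β-catenin signalling and WNT5A, read 56.0, 68.5, 78.0 and 77.4 CPM in WT replicates 1 to 4 and 51.7, 50.02 and 35.8 CPM in KO replicates 1 to 3. WT replicate 1 came nearest to KO, and KO replicate 3 was the lowest. The means were 70.0 ± 10.3 CPM in WT (SD, n = 4) and 45.8 ± 8.72 CPM in KO (SD, n = 3). In edgeR the log2 difference was -0.61 (SE 0.18, 95% interval -1.02 to -0.20). This did not pass edgeR's quasi-likelihood test (adjusted p = 0.186). DESeq2 gave an adjusted p of 0.0467, and over all 17 alternatives the adjusted p ran from 0.0467 to 0.51.

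*Fzd7*, a β-catenin receptor best known from stem cells and early embryos, read 93.1, 92.5, 103 and 102.8 CPM in WT and 49.0, 92.1 and 56.2 CPM in KO. The WT libraries lay close together. KO replicates 1 and 3 were far below them, whereas KO replicate 2 was level with the lowest WT library. The means were 97.9 ± 5.85 CPM in WT (SD, n = 4) and 65.8 ± 23.1 CPM in KO (SD, n = 3). The log2 fold change of -0.57 (SE 0.22, 95% interval -1.07 to -0.07) did not pass (edgeR, adjusted p = 0.241). Without KO replicate 2 it was -0.85 (edgeR, adjusted p = 0.0243), and over the 17 alternatives the adjusted p ran from 0.0243 to 0.51.

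*Fzd1*, the third gene of this subfamily, showed no such separation. It read 115.7, 78.7, 94.4 and 114.2 CPM in WT and 108.0, 103.8 and 81.7 CPM in KO, so that every KO library lay within the WT range. Its log2 fold change was -0.04 (SE 0.17, edgeR adjusted p = 0.924), with a 95% interval from -0.44 to 0.36. That interval overlaps those of *Fzd2* and *Fzd7*, and whether the 3 genes differ in their response was not tested.

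The start regions of *Fzd7* and *Fzd1* are shown because the groups did not overlap for *Fzd7* and overlapped for *Fzd1*. That of *Fzd4* is shown because it was the most abundant Frizzled. RefSeq's promoter table for GRCm38.p6 held 4 of the 10 members, *Fzd1*, *Fzd4*, *Fzd5* and *Fzd7*. Each sequence is the 250 bases before RefSeq's gene start, written 5′ to 3′ on the strand of the gene. For *Fzd4* it ends before the start in GENCODE, which lies 11 bases farther upstream, and is 239 bases long. The starts in GENCODE lie 277 bases downstream of RefSeq's for *Fzd7* and 181 bases downstream for *Fzd1*. Capitals mark matches to 5 motifs on either strand: the GC box GGGCGG, the CCAAT box CCAAT, the TATA box TATAAA, the TCF/LEF core CTTTGA, and the CArG box bound by serum response factor. Neighbouring GC boxes can share letters.
*Fzd7*, chr1:59481897-59482146, plus strand: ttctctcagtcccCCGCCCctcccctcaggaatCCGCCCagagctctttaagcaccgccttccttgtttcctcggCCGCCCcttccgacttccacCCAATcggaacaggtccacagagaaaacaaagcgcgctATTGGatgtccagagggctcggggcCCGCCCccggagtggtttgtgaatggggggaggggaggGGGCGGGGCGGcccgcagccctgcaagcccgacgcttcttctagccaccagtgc
*Fzd1*, chr5:4758217-4758466, minus strand: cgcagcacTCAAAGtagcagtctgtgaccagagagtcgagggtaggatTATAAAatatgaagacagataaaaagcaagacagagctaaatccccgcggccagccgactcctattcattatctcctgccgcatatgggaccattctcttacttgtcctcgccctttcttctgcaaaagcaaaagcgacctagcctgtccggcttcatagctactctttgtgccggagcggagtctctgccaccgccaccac
*Fzd4*, chr7:89404116-89404354, plus strand: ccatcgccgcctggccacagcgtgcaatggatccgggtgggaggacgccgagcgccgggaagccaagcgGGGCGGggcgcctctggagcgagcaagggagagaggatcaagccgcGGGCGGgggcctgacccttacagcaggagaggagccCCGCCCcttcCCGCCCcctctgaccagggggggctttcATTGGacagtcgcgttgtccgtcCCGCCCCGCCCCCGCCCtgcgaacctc

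The *Fzd7* window held 6 GC boxes and 2 CCAAT boxes, at a G+C content of 65.2%. The *Fzd4* window held 7 GC boxes and 1 CCAAT box at 72.8% G+C. The *Fzd1* window held 0 GC boxes and 0 CCAAT boxes, with 1 match to the TATA letters and 1 to the TCF/LEF core, both in the part farthest from the RefSeq start, at 51.2% G+C. Among windows of 27025 genes, 32.9% held a GC box, 34.5% a CCAAT box, 12.97% the TATA letters, 14.05% the TCF/LEF core and 1.40% a CArG box, and the median G+C content was 52.0%. No CArG box lay in the 3 windows shown. These matches describe letters only.

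*Fzd4*, the norrin receptor known for its part in endothelial cells, lies on chromosome 7 (89404355 to 89413134). It read 265, 223, 221 and 277 CPM in WT and 158, 251 and 234 CPM in KO. KO replicate 1 was the lowest library, and its group otherwise lay among the WT values. At -0.20 (SE 0.19, 95% interval -0.64 to 0.23, edgeR adjusted p = 0.618), the log2 difference shrank to -0.03 without KO replicate 1. Endothelial markers, with 10 of 10 detected and none at 0 in every library, summed to between 1654 and 1771 CPM in WT. In KO replicates 1, 2 and 3 they summed to 1032, 1695 and 1673 CPM, lowest in the library in which *Fzd4* was lowest. In KO replicate 1 the list did not move as a whole. *Pecam1* at 257 CPM, *Vwf* at 147.7 CPM and *Tek* at 49.7 CPM were far below their WT ranges. *Tie1* at 107.4, *Kdr* at 74.4 and *Egfl7* at 72.8 CPM were also below theirs, whereas *Cdh5*, *Erg*, *Emcn* and *Robo4* lay within theirs. The summed contractile and adipocyte markers were lowest in KO replicate 1 as well. The part of any of these markers in the *Fzd4* value was not tested.

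*Fzd5* and *Fzd8* encode related receptors for β-catenin signalling. *Fzd8* (chromosome 18, 9212163 to 9218136) read 28.3, 22.0, 23.7 and 25.6 CPM in WT and 17.6, 23.2 and 19.6 CPM in KO. KO replicates 1 and 3 were below all WT libraries, and KO replicate 2 was among them. Its log2 difference of -0.31 had a SE of 0.15 and a 95% interval from -0.65 to 0.04 (edgeR adjusted p = 0.338). *Fzd5* (chromosome 1, 64730558 to 64737751) read 20.6, 15.7, 25.04 and 19.0 CPM in WT and 19.4, 16.05 and 18.3 CPM in KO, wholly inside the WT range. The log2 difference, -0.16 with a SE of 0.18 (edgeR adjusted p = 0.679), was -0.039 without WT replicate 3 and -0.041 without KO replicate 2. Exons of *Fzd5* overlap those of a gene model on the other strand over 1233 bases, and those of *Fzd6* over 152 bases. No source used here names the strand setting of the counting, so reads of such overlaps cannot be told apart.

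*Fzd6* and *Fzd3* encode receptors linked to planar polarity, the alignment of cells within a sheet. Both genes have 7 exons in their longest annotated transcript, *Fzd6* on chromosome 15 (39006034 to 39038188) and *Fzd3* on chromosome 14 (65192449 to 65262463). *Fzd6* had the smallest difference of the Frizzled genes, with 41.5, 36.9, 35.5 and 35.9 CPM in WT and 32.2, 40.3 and 41.02 CPM in KO. It came to 0.02 on the log2 scale (SE 0.12, edgeR adjusted p = 0.96), with a 95% interval from -0.27 to 0.30. Its sign turned without WT replicate 3, WT replicate 4 or KO replicate 3 and with a replicate block, and it stayed above 0 without any of the other 4 libraries. *Fzd3* was scarce, at 3.32, 2.38, 5.65 and 1.90 CPM in WT and 2.01, 2.73 and 2.43 CPM in KO. WT replicate 3 alone was high, and the log2 difference, -0.47 (SE 0.41, edgeR adjusted p = 0.59), was -0.08 without it. FZD3 is known for guiding axons. Schwann cell and nerve markers, of which 9 of 10 passed the filter and none was at 0 in every library, summed to 379.7 CPM in WT replicate 3 and to between 47.1 and 71.3 CPM in the other WT libraries. In KO replicates 1, 2 and 3 they summed to 61.7, 60.6 and 158 CPM. Their part in the *Fzd3* value was not tested.

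The LRP coreceptors are long single-pass proteins of the LDL receptor family, and both overlapped between groups. *Lrp6* (chromosome 6, 134446476 to 134566965) read 196, 161, 172 and 182 CPM in WT and 181, 185 and 161 CPM in KO. The KO libraries spanned nearly the same range as WT, and only KO replicate 3 lay below it, by less than 1 CPM. Its log2 fold change was -0.02 (SE 0.12, edgeR adjusted p = 0.954), and the 95% interval of -0.29 to 0.25 was the narrowest of the 10. *Lrp5* (chromosome 19, 3584828 to 3686564), whose loss lowers bone mass, read 142.6, 101.8, 99.1 and 100.9 CPM in WT and 91.6, 115.8 and 97.5 CPM in KO. WT replicate 1 stood above the rest. On the log2 scale the difference was -0.13 (SE 0.17, 95% interval -0.51 to 0.26, edgeR adjusted p = 0.726), and 0.035 without that library.

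**Figure D2:**
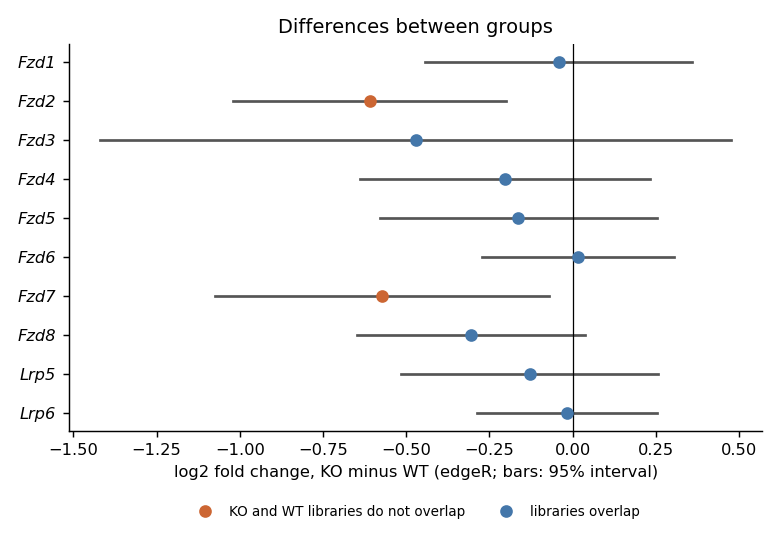
Log2 fold change of KO against WT for each member (points) with its 95% interval (bars), from edgeR. The intervals of *Fzd2* (-1.02 to -0.20) and *Fzd7* (-1.07 to -0.07) lie below 0 and the others include 0, without adjustment for the number of genes.

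To compare levels between genes, CPM were divided by the length of the annotated exons. On this scale *Fzd4* led in WT at 36.7 ± 4.25 CPM per kb (SD, n = 4). *Fzd1* at 24.0 ± 4.197, *Fzd7* at 21.6 ± 1.29 and *Fzd2* at 19.1 ± 2.80 CPM per kb followed, and their WT ranges overlapped. *Fzd6* at 7.77 ± 0.569, *Fzd8* at 4.17 ± 0.454, *Fzd5* at 2.90 ± 0.562 and *Fzd3* at 0.259 ± 0.130 CPM per kb came last, with WT ranges that did not overlap. *Fzd9* and *Fzd10*, the remaining Frizzled genes, averaged 0.843 and 0.318 CPM in WT. *Lrp6* at 13.01 ± 1.10 and *Lrp5* at 11.4 ± 2.16 CPM per kb had WT ranges that overlapped on merged exon length. With the length of the longest transcript they did not overlap, at 11.1 to 16.04 CPM per kb for *Lrp5* and 17.2 to 20.96 CPM per kb for *Lrp6*, so their order depends on the length used.

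The order shifted within the KO group. In KO replicate 1 *Fzd1* at 25.7 CPM per kb exceeded *Fzd4* at 23.5 CPM per kb, whereas *Fzd4* led in the other 6 libraries. In KO *Fzd7* averaged 14.5 ± 5.09 and *Fzd2* 12.5 ± 2.38 CPM per kb (SD, n = 3), below *Fzd1* at 23.3 ± 3.37 CPM per kb. The sum over the 8 Frizzled genes was between 104.9 and 126.8 CPM per kb in WT, and 86.7, 110.8 and 91.1 CPM per kb in KO replicates 1, 2 and 3. The sum of *Lrp5* and *Lrp6* was between 22.2 and 29.0 CPM per kb in WT, and 22.7, 25.4 and 21.8 CPM per kb in KO. The Frizzled sum in KO replicates 1 and 3 was thus below the WT range, and the coreceptor sum in KO replicate 3 was just below it.

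As shares of the Frizzled sum, *Fzd7* made up 18.6% ± 1.25 in WT (SD, n = 4) and 14.8% ± 3.11 in KO (SD, n = 3), and *Fzd2* 16.5% ± 2.55 and 13.1% ± 2.85. *Fzd4* made up 31.5% ± 1.95 in WT and 33.0% ± 5.61 in KO, and *Fzd1* 20.5% ± 2.25 and 24.5% ± 4.54. For all 4 genes the library values of the groups overlapped. *Fzd6* was the member whose share did not overlap, at 7.21, 7.31, 6.42 and 5.88% in WT and 7.71, 7.55 and 9.35% in KO, although its CPM did. *Lrp5* made up 46.5% ± 3.01 of the coreceptor sum in WT and 44.7% ± 2.83 in KO. Shares within a sum are tied to each other and were not tested.

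**Figure D3:**
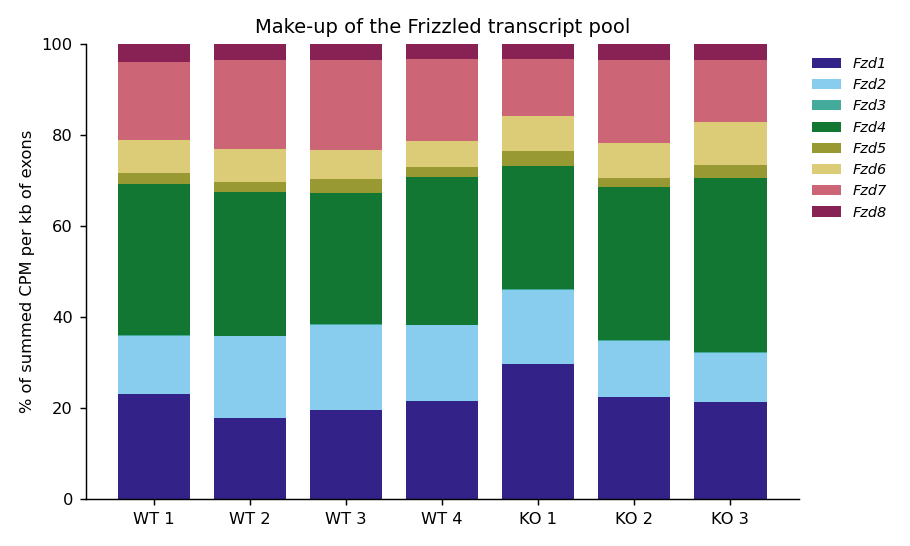
Share of each Frizzled gene in the summed CPM per kb of exons (stacked to 100%), 1 bar per library. *Fzd1*, *Fzd2*, *Fzd4* and *Fzd7* fill most of each bar, and *Fzd1* takes its highest share, 29.7%, in KO replicate 1.

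*Fzd7* and the contractile markers ranked the KO libraries alike, and *Fzd3*, *Fzd4*, *Fzd8* and *Lrp5* gave the same order. The share of all genes with this order was not counted. Relative to the WT mean, log2 CPM of *Fzd7* stood at -0.99, -0.09 and -0.80 in KO replicates 1 to 3. The median of the 10 contractile markers stood at -2.22, -0.44 and -1.43 in the same order. *Fzd2* stood at -0.42, -0.47 and -0.95, so that KO replicate 3 and not KO replicate 1 was lowest. The median of the macrophage markers stood at 2.77, 0.82 and 1.80 in the same order. Without KO replicate 1 the log2 fold change of *Fzd7* was -0.41 and that of *Fzd2* was -0.71. Cartilage markers had medians of 2.09, 1.34 and 1.06, with 5 of 10 genes above WT without overlap, and cardiac and skeletal muscle markers of 3.42, 3.36 and 0.43, with 2 of 10. The part of any of these cell types in the values of *Fzd2* and *Fzd7* was not tested.

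**Figure D4:**
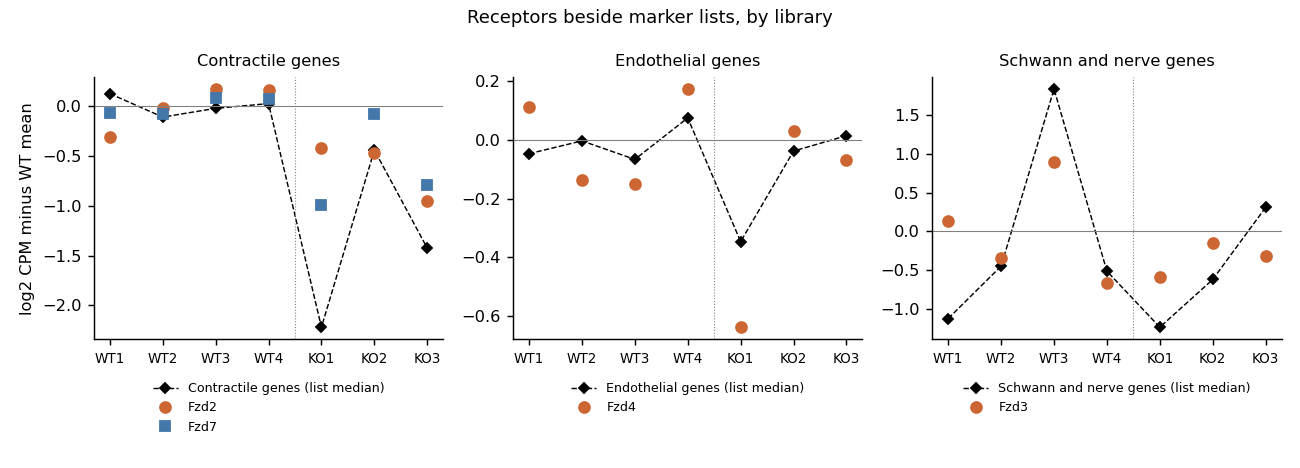
Log2 CPM minus the WT mean by library for *Fzd2* and *Fzd7* beside contractile markers, *Fzd4* beside endothelial markers and *Fzd3* beside Schwann and nerve markers (diamonds, median of each list). *Fzd7* and the contractile list are lowest in KO replicate 1, as are *Fzd4* and the endothelial list. *Fzd3* and the nerve list are highest in WT replicate 3, but within KO the nerve list is highest in replicate 3 and *Fzd3* in replicate 2.

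Likeness to other genes was measured as the root mean square difference of these log2 deviations over the 7 libraries, among 11733 genes with a mean of 5 CPM or more. The genes closest to *Fzd2* were *Tex9* at 0.085, *Ngef* at 0.108 and *Snx24* at 0.119 log2 units. *Fzd7* ranked 346 in that order and *Fzd1* 3852. The genes closest to *Lrp5* were *Amotl1* at 0.047, *Camsap2* at 0.062 and *Ap4e1* at 0.064 log2 units. *Fzd6* ranked 404, *Lrp6* 484 and *Fzd8* 521 for *Lrp5*. With 7 libraries many genes share such a profile, and the values describe these libraries only.

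Calls among the Wnt genes around the receptors depended on the tool. In edgeR 0 genes of the 9 other Wnt lists and of the LDL receptor family list passed the adjusted threshold, in either direction, whereas DESeq2 called genes in 6 of these lists. Without KO replicate 2, edgeR gave adjusted p-values of 0.0242 for *Ccn4*, 0.0243 for *Nkd1*, 0.0287 for *Wif1* and 0.029 for *Ptk7*. It also gave 0.0267 for *Lgr6* and 0.0366 for *Sost*, and all of these genes are described below. The counts below therefore refer to an unadjusted p under 0.05, which 9.92% of all genes met higher and 7.27% lower, and to DESeq2's adjusted p, which 9.68% met.

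Among Wnt ligands, 12 of 19 were tested, with a median log2 fold change of -0.58, and 0 met the unadjusted limit higher and 4 lower. DESeq2 called 0 higher and 2 lower. *Wnt5a*, a ligand of FZD2 and of ROR2, averaged 43.1 ± 5.56 CPM in WT and 28.2 ± 5.69 CPM in KO (SD, n = 4 and 3; edgeR adjusted p = 0.181). Its KO libraries all lay below its WT libraries. *Wnt9a* averaged 16.5 ± 1.35 and 10.96 ± 1.78 CPM (edgeR adjusted p = 0.181) and did not overlap either.

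For the alternative receptors and planar polarity partners, all 12 were tested, with a median of -0.09, and 1 met the unadjusted limit higher and 2 lower. *Ptk7*, a pseudokinase coreceptor, read 3.06 to 4.04 CPM in WT and 13.9, 3.88 and 8.77 CPM in KO. *Celsr1*, a polarity cadherin, averaged 11.7 ± 1.85 CPM in WT and 5.59 ± 2.15 CPM in KO, without overlap. DESeq2 called each of these, and edgeR neither (adjusted p = 0.195 and 0.185). *Smo*, the Hedgehog transducer of the Frizzled class, averaged 65.5 ± 8.61 and 59.7 ± 7.89 CPM.

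Receptor turnover at the membrane is set by the ligases ZNRF3 and RNF43, which remove Frizzled, and by R-spondins with their LGR receptors, which hold those ligases back. Of 9 genes 8 were tested, with a median of 0.01, and 2 met the unadjusted limit in each direction. *Znrf3* averaged 12.99 CPM in WT and 11.6 CPM in KO. *Lgr4* averaged 38.7 ± 3.91 CPM in WT and 24.3 ± 5.93 CPM in KO (edgeR adjusted p = 0.181), with every KO library below WT. *Lgr5* was scarce and lay the other way, at 0.239 to 2.17 CPM in WT and 8.37, 3.34 and 3.496 CPM in KO (edgeR adjusted p = 0.195). Its log2 fold change of 2.58 was 3.64 without WT replicate 3 and 1.995 without KO replicate 1. DESeq2 called 1 gene of this list higher and 2 lower.

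Genes for receptor maturation and Wnt secretion had a median of -0.32, and 11 of 11 tested genes were below 0. Of these, 3 met the unadjusted limit, all lower, and DESeq2 called 2 lower. *Mesd*, the chaperone that LRP5 and LRP6 need to reach the surface, averaged 62.9 CPM in WT and 59.8 CPM in KO, and *Wls*, the carrier of Wnt proteins, 171.8 and 164.6 CPM. *Shisa4*, of a family that can retain Frizzled proteins, averaged 30.8 ± 5.11 and 19.3 ± 3.37 CPM, and *Apcdd1*, a membrane inhibitor of Wnt receptors, 20.3 ± 3.98 and 12.8 ± 2.85 CPM (edgeR adjusted p = 0.181 and 0.205). Both were without overlap. The 4 genes that serve FZD4 with norrin or WNT7 had a median of -0.29, with 0 at the unadjusted limit. *Reck*, a WNT7 cofactor, averaged 79.3 ± 13.8 CPM in WT and 55.3 ± 17.1 CPM in KO, and *Adgra2*, its partner, 48.4 ± 7.17 and 73.1 ± 33.3 CPM. In KO replicates 1 to 3 *Adgra2* read 111.5, 51.8 and 56.0 CPM. Its log2 fold change of 0.59 (edgeR adjusted p = 0.326) was 0.15 without KO replicate 1.

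Secreted antagonists had a median of 0.23 over 13 tested genes, with 2 at the unadjusted limit in each direction, and DESeq2 called 2 in each direction. *Frzb*, which carries a Frizzled-like cysteine-rich domain, averaged 31.2 ± 5.81 CPM in WT and 57.7 ± 12.6 CPM in KO, and its groups did not overlap (edgeR adjusted p = 0.166). *Wif1*, which binds Wnt proteins, averaged 49.1 ± 15.5 and 18.6 ± 9.90 CPM, with every KO library below WT (edgeR adjusted p = 0.181).

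Cytoplasmic transducers had a median of -0.17 over 21 tested genes, with 0 higher and 3 lower at the unadjusted limit and 0 called by DESeq2. *Dvl2*, a Dishevelled gene, averaged 25.7 ± 4.43 and 18.5 ± 0.923 CPM, and *Bcl9*, a β-catenin coactivator, 32.0 ± 2.45 and 25.2 ± 2.87 CPM. The feedback targets had a median of -0.01 over 13 tested genes, with 4 higher and 1 lower at the unadjusted limit. DESeq2 called 3 higher and 1 lower, and *Lgr5* stands on this list as well as on that of receptor turnover. *Ccn4*, a matricellular protein gene, read 8.07 to 13.1 CPM in WT and 105.2, 30.9 and 40.1 CPM in KO. Its KO libraries all lay above WT, with KO replicate 1 the highest (log2 fold change 2.57, SE 0.43, edgeR adjusted p = 0.165). Without KO replicate 1 it was 1.84. *Nkd1*, an inhibitor of Dishevelled, averaged 41.6 ± 4.23 CPM in WT and 18.9 ± 7.20 CPM in KO, without overlap (edgeR adjusted p = 0.166).

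*Lrp5* and *Lrp6* were also set beside the other members of the LDL receptor family, whose 12 genes had a median of -0.25, with 0 higher and 2 lower at the unadjusted limit. *Sorl1*, a sorting receptor, averaged 254.1 ± 57.6 CPM in WT and 163.8 ± 31.2 CPM in KO (edgeR adjusted p = 0.222). *Lrp3* averaged 49.8 ± 2.72 and 41.4 ± 4.59 CPM (edgeR adjusted p = 0.277), without overlap. DESeq2 called 0 genes of this family.

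**Figure D5:**
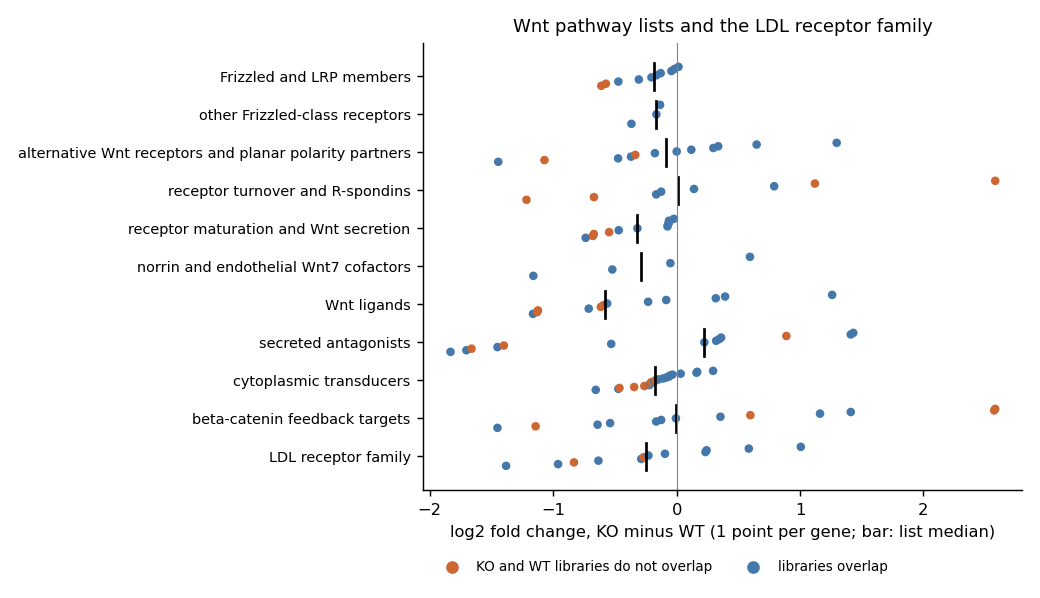
Log2 fold change of KO against WT for every tested gene of the Wnt lists and of the LDL receptor family (1 point per gene, orange where the KO and WT libraries do not overlap and blue where they do, bar at the list median). The members span -0.61 to 0.02, and the ligands have the lowest median, -0.58.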

How the data were processed

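Per the labels' protocols, libraries came from aortic total RNA (SMARTER mRNA-Seq kit). Estimated counts, in whole numbers, were deposited by the authors in 1 table, and all 7 of its columns were used. The submitters' processing notes name GRCm38 and mm10. No source used here names the aligner, counter, annotation release or strand setting. Low values pile up at multiples of 4, so a deposited count need not be 1 read.

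Of 47729 identifiers, 47224 matched a symbol. Counts, which rounding left unchanged, were filtered with filterByExpr (19188 genes), scaled by TMM and tested with glmQLFit and glmQLFTest of edgeR 4.0.16 in R 4.3.3, KO against WT without covariates, adjusted over all genes (Benjamini-Hochberg, threshold 0.05). Standard errors match the quasi-likelihood F statistic. Marker deviations are medians of log2 CPM (prior count 2) minus the WT mean. Lengths are merged exons of GENCODE M21. P-values measure the spread between these libraries, which may be technical. No library duplicated another: by chi-square of counts divided by 4, every pair differed beyond sampling noise, with a mean per gene of 24.7 or more.

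Members and lists were chosen with earlier results of these data known. The rule named all members, the 2 genes with the smallest p of each other Wnt list and of the LDL receptor family, any called gene of these lists, and the 3 genes most like the Frizzled and the LRP gene with the smallest p. *Fzd9*, *Znrf3*, *Mesd*, *Wls*, *Lgr6* and *Sost* fall outside it and were chosen with their values in view. Scripts were checked on simulated data. At the spread estimated from these libraries the edgeR test recovered 11.5% of simulated 2-fold changes and 80.6% of 8-fold changes. DESeq2 1.42.0, limma-voom (limma 3.58.1), other scalings and filters, removal of mitochondrially encoded genes, the replicate block and leaving out each library were alternatives. Counts divided by 4 and a robust fit were added after seeing the data.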

Additional observations from a re-analysis of the deposited data

Results flagged for a closer look

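*Lrp5* in WT replicate 1, at 142.6 CPM, stood apart from the other 3 WT libraries, which read 99.1 to 101.8 CPM. The gap to its nearest neighbour was 0.937 of the range of the group, above Dixon's 95% limit. WT replicate 3 stood apart in the summed Schwann cell and nerve markers, at 379.7 CPM, which is the library in which *Fzd3* was highest. Within KO that sum was highest in replicate 3 and *Fzd3* in replicate 2. WT replicate 2 stood apart in the summed lymphocyte markers, at 171 CPM against 39.6 to 52.4 CPM in the other WT libraries. Of 63 quantities examined 3 were marked in this way, and chance alone marks about 1 in 20.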

How the results depend on the processing

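The count of members called was 0 in edgeR and 1 with DESeq2, and 0 to 1 without any 1 library. Over all genes the count was 3 in edgeR, 0 without a filter and 7 with at least 50 counts in at least 3 libraries. It was 7 with counts divided by 4, 7 with limma-voom under sample quality weights and 1606 with DESeq2. Without 1 library it ran from 0 to 1029, the latter without KO replicate 2. With the replicate number as a block it was 0, and 0 members were called. Same-numbered WT and KO libraries deviated together with correlations of 0.0545, 0.0691 and 0.34, and KO replicate 1 correlated better with WT replicate 4 (0.0892), so the numbers were not taken to pair the libraries. Of 170 values of the members' log2 fold changes under alternatives, 155 kept their sign and side of the threshold, 2 passed the threshold and 13 changed sign. The sign changes were all near 0. *Fzd1* was 0.031 with the block and -0.12 to 0.085 without 1 library (above 0 without WT replicates 1 or 4 or KO replicate 3), and *Fzd6* was -0.0087 with the block and -0.037 to 0.11 without 1 library. *Lrp5* ran from -0.18 to 0.035 without 1 library, and *Lrp6* was 0.012 with the stricter filter, 0.011 with counts divided by 4 and -0.046 to 0.058 without 1 library (above 0 without WT replicate 1 or KO replicate 3). *Fzd10*, no member and at under 1 CPM, ran from -1.33 to 0.15 (above 0 without WT replicate 2 or KO replicate 2). With the longest annotated transcript as length, the share of *Fzd6* in WT was 7.41%, that of *Lrp5* 39.5% in WT and 37.8% in KO, and that of *Lrp6* 60.5% in WT and 62.2% in KO. The other 85 of 90 share values moved by less than 1 SD. Depth limits *Fzd3*, at 1.90 to 5.65 CPM, more than the other members.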

Other observations

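Sclerostin, encoded by *Sost*, is a secreted antagonist that binds LRP5 and LRP6, and *Sost* read 591, 678, 781 and 841 CPM in WT replicates 1 to 4 and 67.7, 428.7 and 189 CPM in KO replicates 1 to 3, without overlap. In edgeR the log2 difference of -1.66 (SE 0.55) missed the threshold over all genes (adjusted p = 0.214), whereas DESeq2 gave an adjusted p of 0.0177. Without KO replicate 2 edgeR gave -2.46 (adjusted p = 0.0366), and over the alternatives the adjusted p ran from 0.0177 to 0.48. *Lgr6*, a receptor for R-spondins, read 299, 252.5, 272 and 252.0 CPM in WT and 55.1, 192 and 100.1 CPM in KO. Its log2 fold change of -1.22 (SE 0.38) had an adjusted p of 0.2 in edgeR and of 0.0202 in DESeq2, with a range of 0.0202 to 0.48 over the alternatives. Both genes ranked the KO libraries as *Fzd7*, several other members and the contractile markers did, and the part of smooth muscle in these values was not tested. Both genes were chosen with their values in view.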
